A study of Mus musculus with 12 samples.

Results

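A set of 10 Wnt pathway genes, among 80012 loci in the count table, was followed from pluripotent mouse embryonic stem cells into sorted mesendoderm. They were 5 ligand genes (Wnt3, Wnt3a, Wnt8a, Wnt5a and Wnt5b), the 2 secreted antagonists Dkk1 and Frzb, and Axin2, Sp5 and Lef1, 3 known transcriptional targets of the pathway. Lef1 also encodes a nuclear effector. A gene was taken as the assembled locus holding transcripts that carried its name and either matched the reference transcript or were a new splice form of it. Each name had 1 such locus, and all 10 passed the filter on low expression, as did 20212 loci in all.

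Wnt proteins are lipid-modified secreted ligands that bind Frizzled receptors and LRP coreceptors. In the canonical branch this binding spares beta-catenin from destruction, and beta-catenin then joins TCF/LEF factors at target genes. The pathway is known to be required for the primitive streak, from which mesoderm and definitive endoderm arise, and Wnt3 is the ligand whose loss abolishes it in the mouse embryo.

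The cells were C57BL/6 mouse ESCs carrying an EGFP cassette at the start of the endogenous Eomes gene, so all groups shared 1 reporter line. The ESC group was undifferentiated (day 0), grown on mouse embryonic fibroblast feeders. For the other groups, cells were differentiated as embryoid bodies in hanging drops and sorted at day 3 by fluorescence into EGFP-negative cells (Eo−) and EGFP-positive cells (Eo+). Each group had 4 libraries, numbered 1, 2, 5 and 6, of poly(A) RNA sequenced as stranded pairs, with 648413022 to 837308168 counts per library.

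Eomes, which defined the sort, averaged 46.4 CPM (read counts scaled to library size with TMM factors) in ESC, 136 CPM in Eo− and 530 CPM in Eo+. The summed level of the 9 primitive streak and mesendoderm markers, Eomes itself among them, was 94.4 to 291 CPM in ESC, 277 to 549 CPM in Eo− and 2038 to 3384 CPM in Eo+. Eo− was therefore low in these markers and not free of them. The 10 feeder fibroblast markers summed to 102 to 249 CPM in ESC against 29.9 to 40.4 CPM in Eo− and 29.3 to 42.8 CPM in Eo+, and Col1a1 alone averaged 63.8 CPM in ESC. The part of feeder RNA in the ESC levels below was not tested. The 8 visceral endoderm markers summed to 4.46 to 9.70 CPM in ESC, 6.04 to 16.3 CPM in Eo− and 10.1 to 66.9 CPM in Eo+. The 6 blood markers summed to 2.2 to 2.89 CPM in ESC, 7.35 to 127 CPM in Eo− and 18.1 to 99.0 CPM in Eo+, highest in library 1 of each group. These sums were of unlike make-up: Tal1 averaged 11.4 CPM in Eo− and 44.7 CPM in Eo+, and Hbb-bh1 19.8 and 2.17 CPM. At an adjusted p of at most 0.05 (limma), Tal1 was called higher in Eo+ than in Eo−. Hba-x and Klf1 were called lower there, and the other 3 were not called. Eo− library 1 was also the highest of Eo− for Wnt3, Wnt5a, Dkk1 and Frzb, and highest of Eo− in summed visceral endoderm markers (16.3 CPM against 6.04 to 7.32 CPM) and mesendoderm markers (549 CPM). The part of RNA from these cell types in these levels was not tested. The 8 pluripotency markers summed to 3674 to 4824 CPM in ESC, 1653 to 2084 CPM in Eo− and 1340 to 2539 CPM in Eo+. In Eo+ vs Eo−, 6 of the 8 were called lower (22.2% of all loci were), Tdgf1 rose from 390 to 1259 CPM and Klf4 was not called. The 7 neuroectoderm markers summed to 51.2 to 96.9 CPM in ESC, 63.8 to 124 CPM in Eo− and 45.8 to 84.2 CPM in Eo+. Most of each sum was Nes (means of 61.8, 93.2 and 69.9 CPM), not called in any comparison. The other 5 tested were called lower against ESC in both sorted groups, as were 33.8% of all loci in Eo+ and 29.4% in Eo−. No marker on these 6 lists was at 0 in all libraries of a group.

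Most of the 10 genes were higher in Eo+ than in ESC. At an adjusted p of at most 0.05 (limma on voom log2 CPM, adjusted over all loci tested), 8 of 10 rose in Eo+ vs ESC and none fell, where 66.7% of all loci tested were called, 32.9% higher and 33.8% lower. In Eo+ vs Eo−, 7 rose and none fell, beside 43.4% of loci called, 21.2% higher and 22.2% lower. In Eo− vs ESC, 5 rose and Sp5 fell, beside 57.3% of loci called, 27.9% called higher and 29.4% called lower. All 4 libraries of the first group lay above those of the second for 8, 6 and 4 genes in Eo+ vs ESC, Eo+ vs Eo− and Eo− vs ESC, which 29.6%, 21.1% and 25.1% of all loci did. The change was both called and at least 2-fold for 8, 5 and 4 genes, beside 35.7%, 19.4% and 26.5% of loci. The median log2 change over the 10 genes was 1.78, 1.68 and 0.52 in the same order, against −0.01, −0.03 and 0.02 over all loci tested. Comparisons that share a group are not independent of each other. In bulk RNA, a change in the number of cells that express a gene and a change in RNA per cell cannot be told apart.

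**Figure D1:**
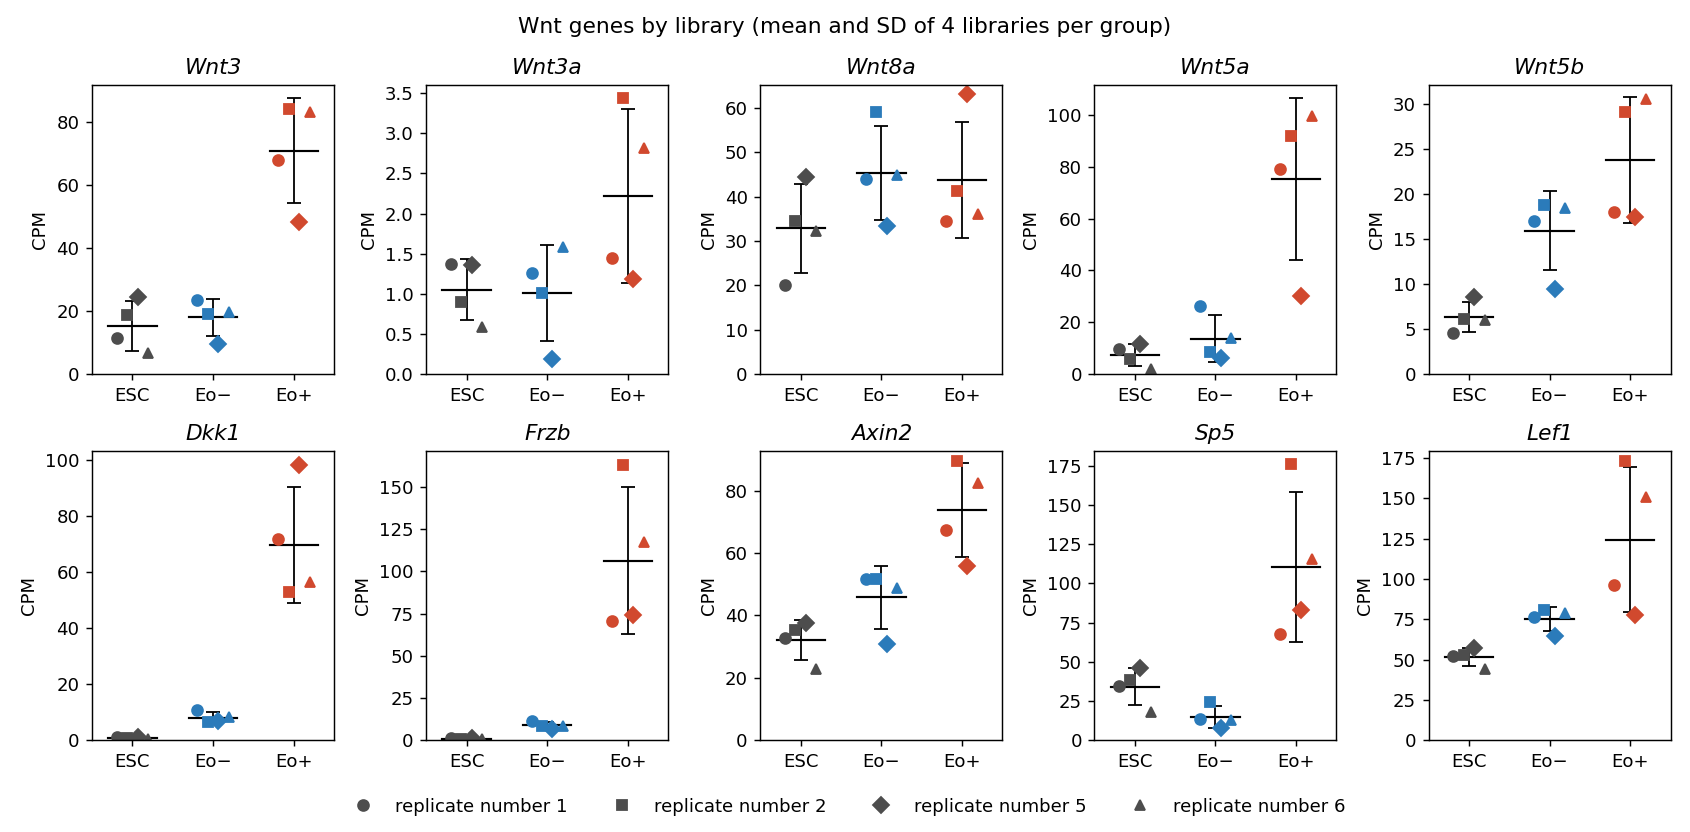
Normalised read counts (CPM, linear axes from 0) of the 10 Wnt genes in each of 12 libraries, with a symbol for each replicate number, and the mean and SD of 4 libraries per group. The Eo+ libraries lie above all ESC and Eo− libraries for Wnt3, Wnt5a, Dkk1, Frzb, Axin2 and Sp5, and the 3 groups overlap for Wnt3a and Wnt8a.

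Wnt3 rose in Eo+ against both other groups. Its level was 11.5, 18.9, 24.3 and 6.55 CPM in ESC libraries 1, 2, 5 and 6, and 23.4, 19.1, 9.62 and 19.7 CPM in the Eo− libraries in the same order. In Eo+ it was 68.1, 84.2, 48.4 and 83.3 CPM, with every Eo+ library above every other library. Wnt3 was higher in Eo+ than in ESC by 2.33 ± 0.34 (log2, SE; adjusted p = 3.0e-05) and higher than in Eo− by 2.01 ± 0.32 (adjusted p = 0.000207). Eo− and ESC overlapped, with a difference of 0.32 ± 0.38 and a 95% interval of −0.49 to 1.13 (adjusted p = 0.494).

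Wnt5a, known mainly for non-canonical signalling and axis elongation, had the largest log2 change of the 5 ligands in Eo+ vs ESC. ESC libraries 1, 2, 5 and 6 held 9.57, 5.73, 11.7 and 2.11 CPM, and the Eo− libraries 26.3, 8.54, 6.36 and 13.8 CPM. The Eo+ libraries held 79.2, 91.8, 30.3 and 99.7 CPM. Library 5 was far below the other three Eo+ libraries and still above the highest Eo− library. The change was 3.46 ± 0.57 in Eo+ vs ESC (adjusted p = 9.7e-05) and 2.51 ± 0.50 in Eo+ vs Eo− (adjusted p = 0.00106). In Eo− vs ESC it was 0.95 ± 0.65, with groups that overlapped and an interval of −0.44 to 2.35 (adjusted p = 0.226). The ESC library lowest in Wnt5a, library 6, was also lowest in summed feeder markers (102 CPM), and libraries 1 and 5, highest in Wnt5a, were highest in feeder markers (249 and 191 CPM).

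Wnt5b, a close relative of Wnt5a, rose against ESC in both sorted groups. It was 4.52, 6.13, 8.57 and 6.02 CPM in ESC and 17.0, 18.7, 9.49 and 18.4 CPM in Eo−, with no overlap. It was 18.1, 29.1, 17.5 and 30.5 CPM in Eo+, which overlapped Eo−. The change was 1.90 ± 0.28 in Eo+ vs ESC (adjusted p = 3.8e-05) and 1.33 ± 0.29 in Eo− vs ESC (adjusted p = 0.00141). In Eo+ vs Eo− it was 0.57 ± 0.24 (adjusted p = 0.0706), and with the replicate number as a block it was called, at 0.58 (adjusted p = 0.0371). It was also called by DESeq2 (adjusted p = 0.0497) and without Eo+ library 1 (adjusted p = 0.0408) or 5 (adjusted p = 0.0329), within a span of 0.00714 to 0.217 over the alternatives. Wnt5b was higher in Eo+ in each of the 4 numbers, by 0.08 to 0.88 (log2).

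Wnt8a, a ligand of the early posterior embryo, was not called in any comparison, and its 3 groups overlapped. ESC libraries ranged from 20.1 to 44.5 CPM, Eo− from 33.4 to 59.0 CPM and Eo+ from 34.6 to 63.0 CPM. The Eo+ vs Eo− difference was −0.07 ± 0.23, with an interval of −0.57 to 0.44 (adjusted p = 0.848). Against ESC it was 0.43 ± 0.24 in Eo+ (adjusted p = 0.136) and 0.50 ± 0.24 in Eo− (adjusted p = 0.0946), and without ESC library 5, the highest, both passed, at 0.61 (adjusted p = 0.0480) and 0.67 (adjusted p = 0.0347). The Eo− change also passed without Eo− library 5 (0.63, adjusted p = 0.0470). The alternatives spanned adjusted p-values of 0.0185 to 0.440 for Eo+ and 0.0347 to 0.318 for Eo−. The highest Eo+ value came from library 5, in which the other ligands of the set were lowest.

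Wnt3a, a canonical ligand of the primitive streak and tailbud, was the least abundant of the 10 genes in Eo+. It was 1.37, 0.893, 1.36 and 0.589 CPM in ESC, 1.26, 1.02, 0.186 and 1.58 CPM in Eo−, and 1.44, 3.44, 1.19 and 2.82 CPM in Eo+. All groups overlapped. The change was 1.01 ± 0.55 in Eo+ vs ESC (adjusted p = 0.121), and it passed at 0.98 with the fit restricted to both groups (adjusted p = 0.0495) and at 1.01 without Eo− library 5 (adjusted p = 0.0281), over a range of 0.0281 to 0.276. In Eo+ vs Eo− it was 1.35 ± 0.56 with an interval of 0.15 to 2.54 (adjusted p = 0.0653). A block on the replicate number, fitted to both sorted groups alone, gave 1.21 (adjusted p = 0.0166). It was also called by DESeq2 (adjusted p = 0.0492) and without Eo− library 6 (adjusted p = 0.0394) or Eo+ library 5 (adjusted p = 0.0370). Wnt3a was higher in Eo+ in all 4 numbers, by 0.19 to 2.68. Without Eo− library 5, at 0.186 CPM, the difference was 0.67 (adjusted p = 0.196), the highest p of a range that began at 0.0166.

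Ligand levels were then compared per kilobase of assembled exon (FPKM) over all 19 Wnt ligand genes. Wnt8a led in ESC at 9.83 ± 3.01 FPKM (SD, n = 4) and in Eo− at 13.6 ± 3.15 FPKM, where it made up 46.9% and 51.5% of the mean summed ligand FPKM and every library was above the next ligand. Wnt3 at 3.14 ± 1.61 FPKM and Wnt5b at 1.98 ± 0.526 FPKM followed in ESC, and Wnt5b at 5.01 ± 1.37 FPKM and Wnt3 at 3.69 ± 1.21 FPKM in Eo−, each pair with overlap. In Eo+ the first place was taken by Wnt3 at 14.6 ± 3.44 FPKM, 26.2% of the sum, followed by Wnt8a at 13.1 ± 3.94 FPKM. These 2 levels overlapped. Over its longest reference transcript alone Wnt3 came to 23.1 FPKM in Eo+, and the first 4 places in each group did not move. Wnt5a followed at 9.49 ± 3.93 FPKM and Wnt5b at 7.49 ± 2.2 FPKM, and these neighbours also overlapped.

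The sum over 19 ligands was 15.8 to 28.9 FPKM in ESC, 17.3 to 31.2 FPKM in Eo− and 44.9 to 64.6 FPKM in Eo+. Every Eo+ library thus held more ligand RNA per length than any other library. Wnt8a made up 17.0 to 21.0% of the sum in Eo+ libraries 1, 2 and 6, below the 38.0 to 58.5% of the ESC libraries, but 42.1% in Eo+ library 5, so that the groups overlapped. Wnt8a was the first ligand in that library and Wnt3 in the other three. The ratio of Wnt5b to Wnt5a, per length, was 1.18 to 7.13 in ESC and 1.62 to 5.48 in Eo−. In Eo+ it was 0.569, 0.791, 1.44 and 0.764 in libraries 1, 2, 5 and 6, so that Wnt5a exceeded Wnt5b in all but library 5.

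**Figure D2:**
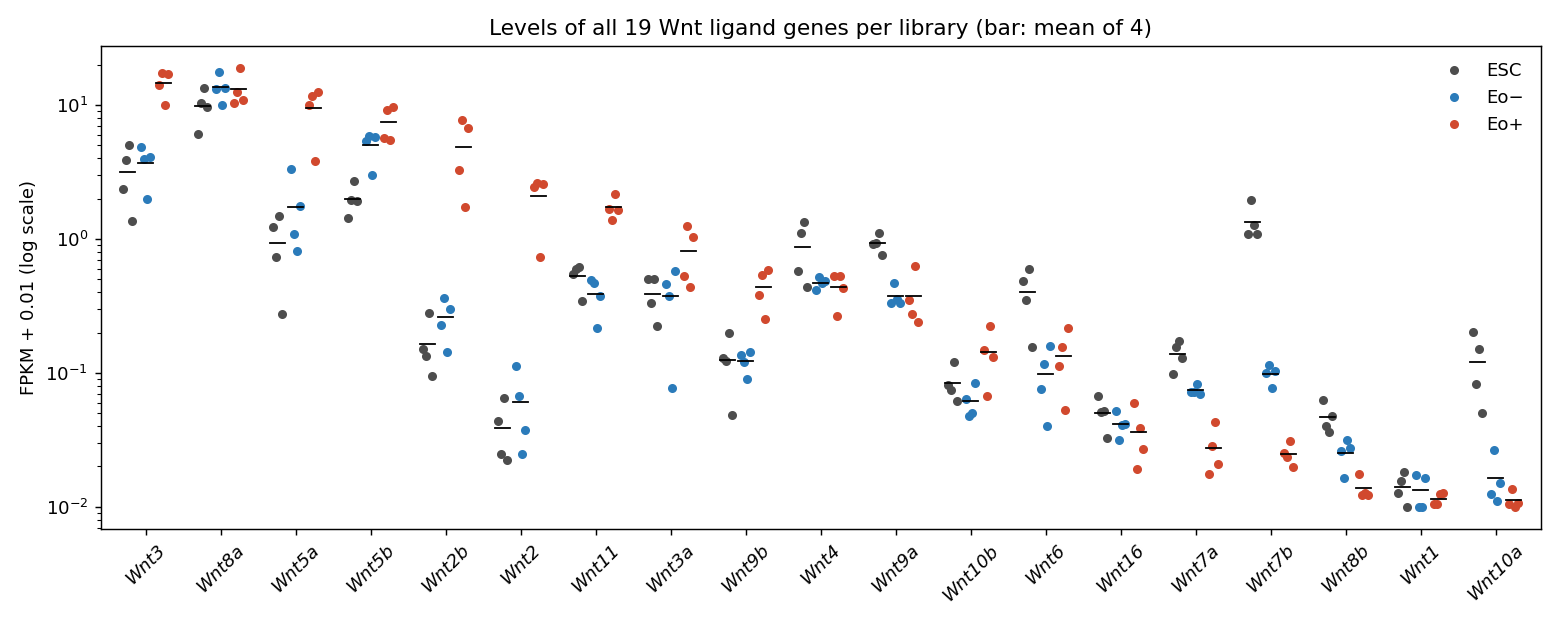
Levels per length (FPKM + 0.01, log axis) of the 19 Wnt ligand genes, ordered by their Eo+ mean, with a point per library and a bar for the mean of 4 libraries. Wnt3, Wnt5a, Wnt2b and Wnt2 are higher in Eo+ (red), Wnt7b is lower in both day 3 groups than in ESC, and Wnt8a lies between 6.01 and 18.9 FPKM throughout.

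The remaining 14 ligand genes moved both ways. The expression filter passed 11 of them (all but Wnt1, Wnt8b and Wnt16), and in Eo+ vs ESC 4 rose and 6 fell, or 36.4% and 54.5% of those tested, beside 32.9% and 33.8% of all loci. Wnt2, at 0.0749 to 0.330 CPM in ESC and 0.0901 to 0.622 CPM in Eo−, reached 14.7, 15.6, 4.38 and 15.4 CPM in Eo+, a change of 5.53 ± 0.65 in Eo+ vs Eo− (adjusted p = 1.9e-05). Wnt2b rose by 4.12 ± 0.56 in the same comparison, from a mean of 1.08 to 21.0 CPM. Wnt7b, by contrast, fell from 4.83 to 8.74 CPM in ESC to 0.299 to 0.468 CPM in Eo− and 0.0439 to 0.0935 CPM in Eo+, by 3.89 and 6.48 on the log2 scale.

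A pair of these ligands sits beside Wnt3 and Wnt3a in the genome. Wnt9b lies 24.3 kb from Wnt3 on the opposite strand and rose with it, by 2.01 ± 0.40 in Eo+ vs ESC. Wnt9a lies 16.2 kb from Wnt3a, also on the opposite strand, and fell by 1.43 ± 0.25 in Eo+ vs ESC and by 1.35 ± 0.25 in Eo− vs ESC, while Wnt3a was not called. Of the 2 genes that make a ligand ready for release, Wls, its carrier to the cell surface, rose in both day 3 groups, from 24.5 CPM in ESC to 45.1 CPM in Eo− and 132 CPM in Eo+. Porcn, the acyltransferase that adds the lipid, fell in both, from 42.3 to 11.9 and 16.9 CPM.

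Dkk1 and Frzb had the largest changes of the set. Dkk1 blocks the LRP coreceptor, and Frzb is a soluble Frizzled-related protein that binds ligands. Both were between 0.340 and 1.24 CPM in ESC and were higher in Eo− and higher still in Eo+, with no overlap between any 2 groups. Their log2 changes in Eo+ vs ESC exceeded in size those of 95.9% and 97.3% of the loci tested.

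Dkk1 was 1.24, 0.795, 1.13 and 0.362 CPM in ESC, 10.6, 6.61, 6.73 and 8.07 CPM in Eo−, and 71.7, 52.9, 98.4 and 56.3 CPM in Eo+. The change was 3.29 ± 0.41 in Eo− vs ESC (adjusted p = 1.5e-05) and 3.10 ± 0.26 in Eo+ vs Eo− (adjusted p = 1.1e-06). Within Eo+ its order over libraries was 5, 1, 6 and 2. The summed visceral endoderm markers, which include no Wnt gene, were highest in library 1 (66.9 CPM), then 5 (42.1 CPM), and low in 6 and 2 (19.4 and 10.1 CPM). Of the mesendoderm markers, Foxa2, Cer1 and Sox17 were highest in Eo+ library 5 (165, 396 and 58.8 CPM). Eomes, T, Mixl1, Gsc, Lhx1 and Mesp1, the rest of that list, were highest in library 2. Dkk1 is also known from visceral endoderm. The part of RNA from visceral endoderm or any other cell type in the Dkk1 level was not tested.

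Frzb was 1.24, 0.340, 1.03 and 0.451 CPM in ESC, 11.6, 8.42, 6.60 and 8.06 CPM in Eo−, and 70.9, 163, 74.0 and 118 CPM in Eo+. Its Eo+ order was 2, 6, 5 and 1, the reverse of that of the visceral endoderm markers, and the summed mesendoderm markers and Sp5 had that same order. Foxa2, Cer1 and Sox17, which are part of that mesendoderm sum, did not have this order and were highest in library 5. The change of Frzb was 3.66 ± 0.56 in Eo− vs ESC (adjusted p = 7.6e-05), 3.55 ± 0.33 in Eo+ vs Eo− (adjusted p = 2.7e-06) and 7.22 ± 0.51 in Eo+ vs ESC (adjusted p = 3.1e-08). Per length of assembled exon, Frzb averaged 32.1 ± 13.1 FPKM and Dkk1 24.5 ± 7.27 FPKM in Eo+, and they overlapped. In ESC they averaged 0.230 ± 0.131 and 0.309 ± 0.138 FPKM.

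Among 15 other secreted or receptor-level antagonists, of which 14 passed the filter, 5 rose and 5 fell in Eo+ vs ESC, or 35.7% each way, which is near the 32.9% and 33.8% of all loci. Cer1, a secreted antagonist of Nodal, BMP and Wnt that is also one of the mesendoderm markers, rose from 0.550 to 16.0 and 263 CPM over ESC, Eo− and Eo+. Notum, the carboxylesterase that removes the lipid from Wnt proteins and is itself a known Wnt target, fell from 28.9 to 59.7 CPM in ESC to 4.0 to 7.49 CPM in Eo− and 1.46 to 1.85 CPM in Eo+. Its changes were −3.01 ± 0.27 and −4.81 ± 0.33 against ESC. Sfrp2 rose by 1.44 ± 0.13 in Eo− vs ESC, and Sfrp1 by 1.5 ± 0.28 in Eo+ vs Eo−.

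**Figure D3:**
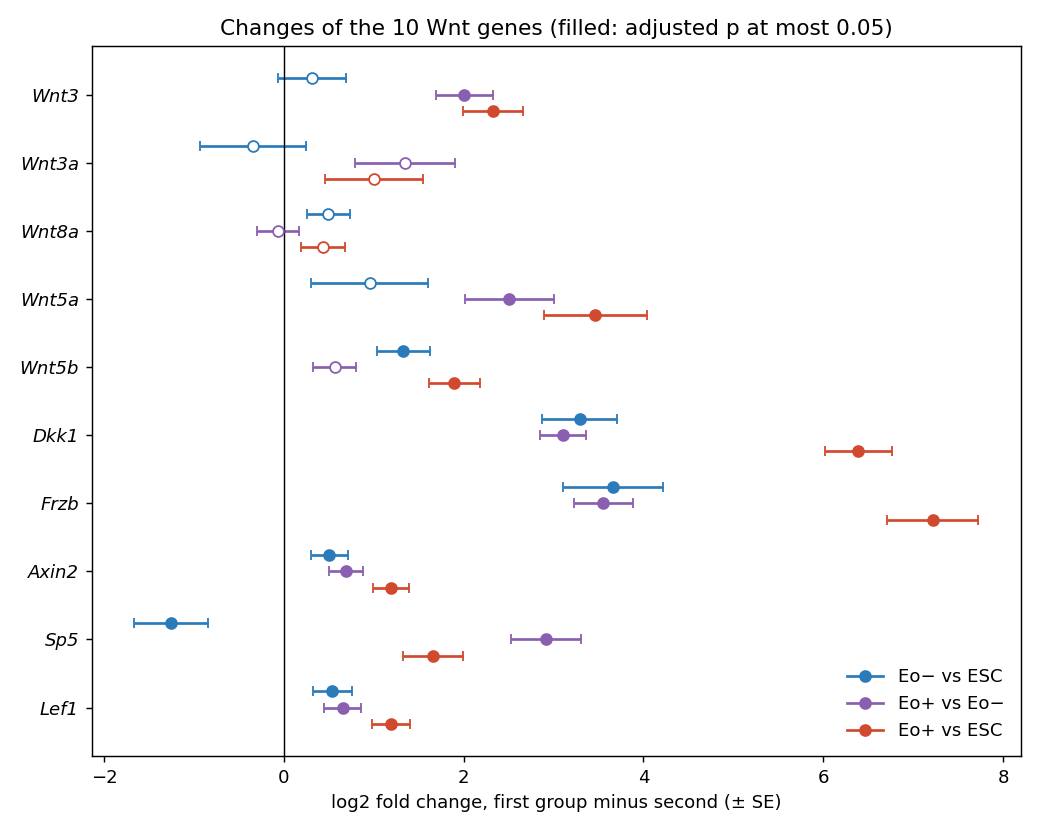
Log2 fold changes with SE of the 10 Wnt genes in 3 comparisons, filled where the adjusted p was at most 0.05. Sp5 is the only gene with a called change below 0, −1.25 in Eo− vs ESC, and Dkk1 and Frzb lie at 6.39 and 7.22 in Eo+ vs ESC.

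Axin2, Sp5 and Lef1 rose in Eo+ against both other groups, but they differed in Eo−. Axin2 encodes a scaffold of the beta-catenin destruction complex and is the usual readout of canonical signalling. Its level was 32.6, 35.2, 37.5 and 22.8 CPM in ESC, 51.6, 51.7, 30.9 and 48.9 CPM in Eo−, and 67.3, 89.4, 55.7 and 82.5 CPM in Eo+. The Eo+ libraries were above all others, by 1.2 ± 0.20 against ESC (adjusted p = 0.000101) and 0.69 ± 0.19 against Eo− (adjusted p = 0.00919). In Eo− vs ESC the change was 0.51 ± 0.20 (adjusted p = 0.0473), with overlap through Eo− library 5. That call was lost with DESeq2 size factors (0.46, adjusted p = 0.0685), with no filter (0.51, adjusted p = 0.0526) and without any 1 of 6 libraries, and the alternatives spanned adjusted p-values of 0.00636 to 0.148.

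Lef1 encodes a TCF/LEF factor present in the primitive streak and its mesoderm. It was 52.5, 53.0, 57.3 and 43.9 CPM in ESC, 76.2, 80.8, 64.3 and 78.8 CPM in Eo−, and 96.0, 173, 77.4 and 151 CPM in Eo+. Both day 3 groups were above ESC, and Eo+ library 5 fell within the Eo− range. The change was 1.19 ± 0.21 in Eo+ vs ESC (adjusted p = 0.000183) and 0.54 ± 0.22 in Eo− vs ESC (adjusted p = 0.0468), the latter lost with DESeq2 size factors (0.50, adjusted p = 0.0688), with no filter (0.54, adjusted p = 0.0619) and without any 1 of 7 libraries (adjusted p-values of 0.000794 to 0.115). In Eo+ vs Eo− it was 0.66 ± 0.20 (adjusted p = 0.0184), and it missed the threshold without Eo− library 5 (0.59, adjusted p = 0.0553), Eo+ library 2 (0.47, adjusted p = 0.0512) or Eo+ library 6 (0.55, adjusted p = 0.0572), the highest of a range from 0.00109. Lef1 was higher in Eo+ in all 4 numbers, by 0.27 to 1.10.

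Sp5, a zinc-finger factor of the Sp family that is strongly induced by canonical Wnt signals, had the largest Eo+ vs Eo− change of the 3 targets. It was 34.5, 38.2, 46.1 and 17.9 CPM in ESC, fell to 13.7, 24.4, 7.87 and 13 CPM in Eo−, and reached 67.5, 176, 83.0 and 115 CPM in Eo+. Eo− and ESC overlapped only through Eo− library 2 and ESC library 6. The change was −1.25 ± 0.41 in Eo− vs ESC (adjusted p = 0.0182), 1.66 ± 0.33 in Eo+ vs ESC (adjusted p = 0.000530) and 2.92 ± 0.38 in Eo+ vs Eo− (adjusted p = 4.8e-05). The fall in Eo− missed the threshold without ESC library 5 (−1.08, adjusted p = 0.0507) or Eo− library 5 (−1.0, adjusted p = 0.0632), and 0.00468 was the lowest adjusted p of any alternative. Sp5 was thus below its ESC level in the sorted group in which Axin2 and Lef1 averaged above theirs.

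The bases upstream of these 3 genes are shown because TCF/LEF proteins bind a short core, written here as CTTTGA or CTTTGT and searched on both strands, and the number of cores differed between starts. Each sequence is the 250 bases before a RefSeq transcription start (build GRCm38.p6, the mm10 assembly, read 5′ to 3′ on the plus strand, which is the strand of all 3 genes), with cores in capitals. They are Sp5 at chr2:70474673-70474922, Axin2 at chr11:108920099-108920348 and Lef1, at the first of its 4 listed starts, at chr3:131110047-131110296.
Sp5: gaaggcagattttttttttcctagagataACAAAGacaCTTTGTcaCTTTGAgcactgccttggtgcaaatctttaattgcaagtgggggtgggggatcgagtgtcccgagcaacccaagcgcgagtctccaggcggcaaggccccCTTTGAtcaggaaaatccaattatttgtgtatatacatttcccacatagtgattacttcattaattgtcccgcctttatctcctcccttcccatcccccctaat
Axin2: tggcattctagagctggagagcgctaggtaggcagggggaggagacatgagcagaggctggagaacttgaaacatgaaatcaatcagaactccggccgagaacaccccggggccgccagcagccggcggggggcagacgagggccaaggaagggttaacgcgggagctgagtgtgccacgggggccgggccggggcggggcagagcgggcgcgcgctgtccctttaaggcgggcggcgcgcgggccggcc
Lef1: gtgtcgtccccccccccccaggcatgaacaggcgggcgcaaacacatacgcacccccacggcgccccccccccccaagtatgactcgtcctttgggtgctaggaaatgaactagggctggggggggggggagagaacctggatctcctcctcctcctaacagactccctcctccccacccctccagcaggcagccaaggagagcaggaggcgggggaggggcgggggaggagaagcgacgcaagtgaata
The Sp5 stretch held 4 cores, none overlapping, of which 3 began 221, 212 and 204 bases before the start and the last 104 bases before it. The Axin2 stretch and the Lef1 stretch shown held none. The next 2 listed Lef1 starts also had none, whereas the last, at position 131156294 inside the gene, had 3 cores that began 180, 146 and 120 bases before it. Bases shortly after the start were found in a GENCODE transcript of the gene for every other start used, but for none of the 4 Lef1 starts. The GENCODE Lef1 gene begins at 131110471. In the authors' assembly the Lef1 locus began at 131110075, inside the stretch shown. The Sp5 locus began at 70472979, upstream of its stretch, and whether an assembled exon covers that stretch was not tested. At least 1 core was present in 27.6% of 32851 promoter stretches of this length, and at least 4 in 0.0944%. Dkk1 held 3 cores, a count of 3 or more being found in 0.776% of promoters, Frzb held 1, Wnt3 and Wnt3a none, and of 3 Wnt5b starts 1 had a single core. Promoters of Wnt5a and Wnt8a were not used here. A match of letters is a description of this window only, and Axin2, whose window held none, was called in the same direction as Sp5 in Eo+.

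The assembled loci mostly followed the GENCODE genes, with exceptions at Axin2, Sp5, Dkk1 and, to a lesser degree, Wnt8a. Wnt3 spans chr11:103774150-103818025 (plus strand), Wnt3a chr11:59248015-59290752 (minus), Wnt5a chr14:28503576-28527470 (plus) and Wnt5b chr6:119432506-119544347 (minus), and Wnt8a lies on chromosome 18. Dkk1 spans chr19:30540012-30550054 (minus), Frzb chr2:80411968-80448487 (minus), Sp5 chr2:70472979-70480619 (plus) and Lef1 chr3:131110075-131224356 (plus). The Axin2 locus, chr11:108920349-109187222 (plus), ran 236439 bp past the end of the GENCODE gene, the Sp5 locus was 7.64 kb long against 2.81 kb annotated, the Dkk1 locus 10.04 kb against 3.80 kb, and the Wnt8a locus 7.55 kb against 5.96 kb. The antisense locus Erich2os/Gad1os overlaps the 3′ end of the Sp5 locus and itself rose from 0.473 to 1.18 and 5.39 CPM over ESC, Eo− and Eo+. Reads were counted by strand, so it was counted apart from Sp5. A locus with no gene name lies within the Axin2 locus on the opposite strand (chr11:109011645-109012166), past the GENCODE end of Axin2, and averaged 182 ± 34.8 CPM in ESC, 68.5 ± 10.6 CPM in Eo− and 440 ± 760 CPM in Eo+ (SD, n = 4). It was not called in any comparison (adjusted p = 0.162 to 0.698). Its SD in Eo+ exceeded its mean, and its fitted log2 change in Eo+ vs ESC was −0.37 ± 0.79, opposite in direction to the means. Fbxl14 lies within the Wnt5b locus, also on the opposite strand. The number of assembled transcripts ranged from 2 (Wnt3, Wnt3a, Wnt8a and Dkk1) to 10 (Axin2), and counts were summed over them.

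The libraries ranked alike for many of the 10 genes. Eo− library 5 was the lowest of its group for 9 genes, all but Dkk1, and had the lowest summed mesendoderm markers of Eo− (277 CPM against 486 to 549 CPM). ESC library 6 was lowest of its group for 7 genes and ESC library 5 highest for 7, and these libraries were also lowest and highest of ESC in summed mesendoderm markers, at 94.4 and 291 CPM. In Eo+, library 5 was lowest for 6 genes (Wnt3, Wnt3a, Wnt5a, Wnt5b, Axin2 and Lef1) and highest for Wnt8a and Dkk1. Library 2 was highest for 6 genes and for the summed mesendoderm markers, at 3384 CPM, though Foxa2, Cer1 and Sox17 of that list were highest in library 5. The part of differing cell content in these orders was not tested. Within the replicate numbers, which pair the sorted groups, 9 of 10 genes were higher in Eo+ in all 4 numbers, as were 30.8% of all loci tested, and Wnt8a in 1.

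Pathway genes beyond ligands and antagonists were read from fixed lists. Over all 94 listed genes, 89 passed the filter. In Eo+ vs ESC 50 rose and 22 fell, in Eo− vs ESC 41 rose and 16 fell, and in Eo+ vs Eo− 37 rose and 14 fell, so that 80.9%, 64.0% and 57.3% were called beside 66.7%, 57.3% and 43.4% of all loci. Their median log2 change was 0.66, 0.40 and 0.28.

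Receptor genes rose more often than they fell. Of 19 receptors and coreceptors, 13 rose and 3 fell in Eo+ vs ESC, and 14 rose and 2 fell in Eo− vs ESC, so that 84.2% were called in each, beside 66.7% and 57.3% of all loci. Lgr5, an R-spondin receptor and a known Wnt target, was 0.365 to 0.770 CPM in ESC, 4.14 to 6.78 CPM in Eo− and 25.7 to 43.5 CPM in Eo+, a rise of 6.01 ± 0.29 in Eo+ vs ESC (adjusted p = 1.1e-09). The Frizzled gene Fzd1 rose by 3.13 ± 0.24 there, and Fzd2 by 1.70 ± 0.17 in Eo− vs ESC. Fzd5 fell by 1.27 ± 0.29 in Eo− vs ESC, Fzd9 by 1.26 ± 0.19 in Eo+ vs ESC and Lgr6 by 2.61 ± 0.20. R-spondins strengthen Wnt signals by removing the ligases that clear Frizzled from the membrane. Rspo3 was 1.51 to 5.73 CPM in ESC, 20.5 to 41.3 CPM in Eo− and 60.7 to 117 CPM in Eo+, whereas Rspo1 was higher in Eo− (11.4 CPM) than in ESC (3.83 CPM) and Eo+ (2.87 CPM). Znrf3, one of those ligases and a known Wnt target, fell by 0.41 ± 0.11 in Eo+ vs ESC, while Rnf43, the other of the pair, rose by 0.93 ± 0.26 (adjusted p = 0.00537), with reads of the locus counted together with those of 1110028F11Rik.

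Of 14 cytoplasmic transducers, 8 rose and 2 fell in Eo+ vs ESC, so that 71.4% were called beside 66.7% of all loci. Nkd1, which binds Dishevelled and is a known Wnt target, rose from 3.72 to 12.3 and 37.3 CPM over ESC, Eo− and Eo+, and Nkd2 from 4.44 to 9.78 and 12.7 CPM. Of 12 nuclear factors, 9 rose and 2 fell in Eo+ vs ESC, or 91.7% called. The TCF gene Tcf7l2 rose by 2.49 ± 0.17 and the corepressor gene Tle2 by 1.80 ± 0.28, while the corepressor genes Tle4 and Tle1 fell by 1.38 ± 0.10 and 0.52 ± 0.10. The coactivators Bcl9 and Bcl9l rose by 1.08 ± 0.08 and 1.07 ± 0.19 in Eo− vs ESC, and reads of the Bcl9 locus were counted together with those of another annotated gene.

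The 12 other genes known to respond to Wnt in some tissue did not move as one. In Eo+ vs ESC 7 rose and 2 fell, or 75.0% called beside 66.7% of all loci. Mixl1, a homeobox gene of the streak that is also on the marker list, was 3.93 to 27.1 CPM in ESC, 6.67 to 25.9 CPM in Eo− and 215 to 475 CPM in Eo+. The T-box gene Tbx6 rose from 0.768 to 5.59 and 20.9 CPM. Cdx1, by contrast, fell from 10.4 CPM in ESC to 0.301 CPM in Eo− and 1.11 CPM in Eo+, with log2 changes of −5.18 ± 0.49 and −3.32 ± 0.40, and was higher in Eo+ than in Eo− by 1.85 ± 0.56. It thus shared with Sp5 a lowest mean in Eo−. Nodal fell from 103 to 80.1 and 48.1 CPM.

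**Figure D4:**
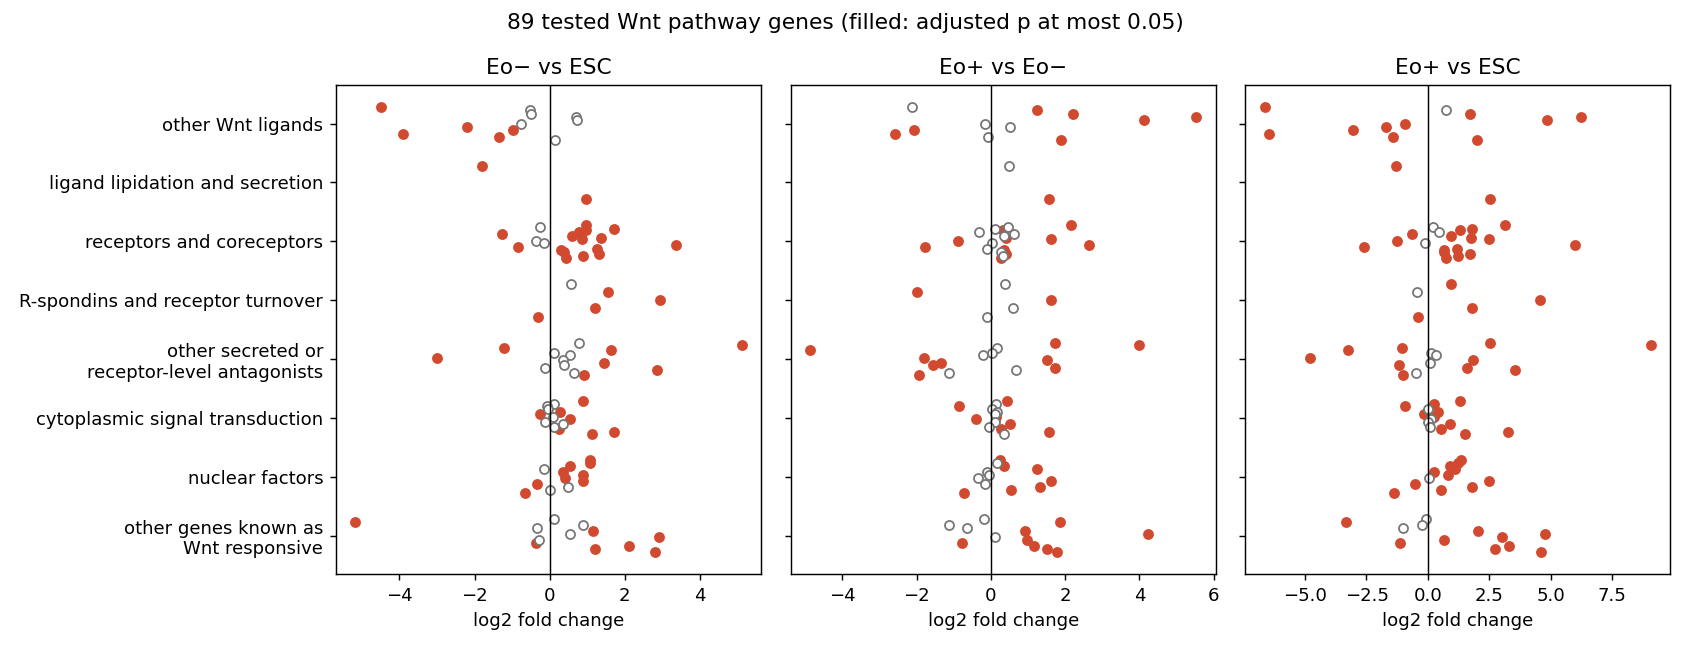
Log2 fold changes of the 89 tested Wnt pathway genes outside the set of 10, by list and comparison, filled where the adjusted p was at most 0.05. Receptors and nuclear factors lie mostly above 0, while the other ligands spread from −6.64 to 6.23 and the other antagonists from −4.81 to 9.09 in Eo+ vs ESC.

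The loci whose pattern over the 12 libraries was most like each gene were taken by Pearson's r of log2 CPM among 13288 candidates, as a description. The libraries fall into 3 groups, so a large r is common for a gene that separates them: 713 loci exceeded 0.95 with Dkk1 and 692 with Frzb, against 26 with Wnt3, 34 with Axin2, 3 with Sp5 and none with Wnt3a and Wnt8a. The nearest to Dkk1 were Fam171a1 (0.995), Rnf103 (0.994) and Lgr5 (0.994), and to Frzb Ankrd42, Aph1b and Gabbr2 (0.993 to 0.995). For Wnt3 they were Tax1bp3 (0.982), Relt (0.977) and Tgfb1 (0.974), for Wnt5a Tada2b, Msx1 and Zfp12 (0.980 to 0.983), and for Wnt5b Plekhg2, Smap2 and Fbxo45 (0.965 to 0.969). The homeobox gene Evx1, known from the primitive streak, was first for Axin2 (0.979), followed by Sall3 and Prep. Among the nearest to Sp5 were Ext1 (0.954) and Mapkapk2 (0.953), both with their lowest mean in Eo−, and among the nearest to Lef1 were Zbtb14 (0.978) and Cdh20 (0.977). Wnt8a was nearest to Kremen2 (0.933), Psors1c2 and Tap2, and Wnt3a to Flna (0.907), Mfn2 and the joined locus of Ddi2 and Rsc1a1. With Spearman's rho in place of Pearson's r, the nearest 3 were another set for all 10 genes.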

How the data were processed

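The deposited raw table holds whole-number read counts per assembled locus, not scaled, which the authors made by mapping the stranded pairs to mm10 with STAR, assembling transcripts with Cufflinks 2.2.1 on the Ensembl annotation and counting by strand with HTSeq 0.6.1 in union mode (versions per the submitters' processing notes). Reads with more than 1 alignment (22.4 to 26.2% of each library's tally) stayed uncounted. The deposited table of normalized signal served only as a list of loci for 1 alternative, and the deposited transcript annotation gave names, positions and exon lengths. The table held 0 columns of other samples.

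From the counts, CPM were computed with TMM factors (edgeR 4.0.16) over the loci tested, and FPKM as these CPM per kilobase of the union of a locus's exons. Loci tested had a mean above 0.1 FPKM (here on library totals, without TMM) in at least 1 group, and a reference gene or at least 2 exons and 200 bp. The test was limma 3.58.1 on voom values (R 4.3.3), all 12 libraries in 1 fit, two-sided, Benjamini-Hochberg adjusted over 20212 loci and called at 0.05. The code was tested on simulated data. A floor of 3 counts is 0.00353 to 0.00470 CPM per library, counting error only. No source says that same-group libraries came from separate cultures beyond 4 differentiation sets, so p-values measure the spread between these libraries.

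Replicate numbers were checked for pairing by correlating deviations from group means over loci. Same-numbered Eo− and Eo+ libraries correlated at 0.590, 0.295, 0.331 and 0.312 for numbers 1, 2, 5 and 6, all over 0.1, and were taken as pairs; the ESC pairs were not all over 0.1. No 2 libraries of a group agreed within counting noise.

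The 10 genes and the pathway and marker lists were chosen with earlier results of these data known. All 10 are named whatever their values. Other pathway genes are named by a rule: per list, comparison and direction, the 2 largest called log2 changes of genes without overlap between groups whose higher mean reached 1 CPM, from which those printed were taken. Wnt9b, Rnf43 and the loci overlapping Sp5, Axin2 and Wnt5b were added after their values were seen. Promoters came from RefSeq (GRCm38.p6), matching 8 of the 10 genes with entries used here. Alternatives covered scaling, test (edgeR quasi-likelihood, DESeq2 1.42.0), filter, samples in the fit, replicate block and leaving out each library. Some loci that the likeness ranking named are not reported here.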

Additional observations from a re-analysis of the deposited data

Results flagged for a closer look

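In the Eo− group, Axin2 in library 5 stood apart, at 30.9 CPM against 48.9 to 51.7 CPM in the other three libraries (a gap of 0.867 of the group's range, beyond Dixon's limit for 4 samples). Without it the Eo− mean was 50.8 CPM. Chance alone would give about 1 such flag in 20 groups, and 30 groups of 4 libraries were checked. The same library was lowest of Eo− for 9 of the 10 genes, and its mesendoderm markers summed to 277 CPM.

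Sp5 moved in opposite directions against ESC in the sorted groups, and both changes were called. The difference between them was 2.92 on the log2 scale, which is the Eo+ vs Eo− change itself, with an adjusted p of 4.8e-05 by limma. Sp5 was higher in Eo+ in all 4 replicate numbers, by 2.30 to 3.40.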

How the results depend on the processing

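The number of the 10 genes called was 8 to 9 for Eo+ against ESC, 4 to 6 for Eo− against ESC and 5 to 9 between the sorted groups over the alternatives run. Of the other pathway genes, a 2-fold change asked for as well left 51 of 72 for Eo+ and 30 of 57 for Eo− against ESC, and 32 of 51 between the sorted groups, as it left 7208 of 13473, 5348 of 11579 and 3912 of 8769 of all loci called. Changes that turned direction were none of them called: Wnt3 in Eo− vs ESC spanned −0.0138 (without ESC replicate 6) to 0.601 as libraries were left out, Wnt3a in Eo− vs ESC −0.665 to 0.335 (without Eo− replicate 5), and Wnt8a in Eo+ vs Eo− −0.245 to 0.0705, above 0 without Eo− replicate 2, Eo+ replicate 1 or Eo+ replicate 6. The causes were not tested. With the replicate number as a block, 8 of the 10 genes were called in Eo+ and 6 in Eo− against ESC, and 8 between the sorted groups, with 72, 62 and 56 of the pathway genes, while calls over all loci went up to 14057, 12308 and 9838. Of the 10 genes only Wnt5b in Eo+ vs Eo− changed its call. A block fitted to the groups compared alone, chosen after seeing the data, gave 9, 6 and 9, adding Wnt8a in Eo+ vs ESC and Wnt5b and Wnt3a in Eo+ vs Eo−. Same-numbered ESC and sorted libraries did not all deviate together, and no source says whether the numbers mark the differentiation sets. Scaling by library totals moved the median change of all loci in Eo− vs ESC to 0.10, from 0.02, and changed no call of the 10 genes. Levels per length depend on the assembled exons, and with the longest reference transcript 9 of 48 ligand ranks moved. Summing loci of a name was not run, since each name had 1 locus.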
